A study of Mus musculus with 3 samples.

Results

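Among cells sorted as macrophages from mouse mammary tumours, 53 of 9749 carried transcripts of epithelium. They were chosen by the UMI counts of 4 genes: Epcam, an adhesion molecule of epithelial surfaces, and Krt8, Krt18 and Krt19, the keratins of simple epithelium. The summed counts of these genes, called here the epithelial score, had to reach 10 per 10000 unique molecular identifiers (UMIs, each one captured RNA molecule) of a cell. A cell was kept when at least 500 genes were detected and at most 15% of its UMIs came from mitochondrial genes. The score picked 4 of 663 kept cells in mouse 1, 14 of 2108 in mouse 2 and 35 of 6978 in mouse 3. They were set against 6907 cells of the same libraries with at least 1 UMI of Adgre1, the gene of the macrophage antigen F4/80, and no UMI of the 4 epithelial genes. These are called Adgre1 cells (528, 1578 and 4801 in mice 1, 2 and 3).

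All 3 mice belonged to 1 group of the strain FVB/N-Tg(MMTVPyVT)634Mul/J, and each gave 1 tumour of 750 mm3. In this model the MMTV promoter drives the polyoma virus middle T antigen in mammary epithelium, so every mouse carried the transgene and no tumour-free tissue was compared. Tumours were digested with enzymes and cells were sorted as CD45+ Ly6G- CD11b+ F4/80+, a gate meant to hold macrophages and to leave epithelium out. Droplet 3' libraries gave 12454677, 41097369 and 86178419 UMIs over 1074, 2470 and 7429 barcodes. The libraries shared 8 barcodes, and 0 of them were epithelial-score cells. The label of these cells as tumour epithelium could not be checked further, because the transgene was not analysed here and transformed and normal epithelium then look alike.

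The mammary gland is built of a luminal layer, which faces the duct and makes milk, and a basal layer of contractile myoepithelial cells. Luminal cells divide into hormone-sensing cells and alveolar progenitors, which turn on milk protein genes under prolactin through the factors STAT5 and ELF5. Tumours driven by middle T in this model are known to arise from luminal epithelium.

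Milk genes take up much of the account below, and the caseins Csn1s1 and Csn2 hold, before their starts, the motif through which STAT5 binds. The window of Csn1s2a, another casein gene, did not hold it, and Csn3, the gene of kappa-casein, had no matched window. On build GRCm38.p6 of RefSeq, the 250 bases before the start of Csn1s1, the gene of alpha-S1-casein, lie at chr5:87665958-87666207 on the plus strand. They are printed 5′ to 3′ with the motif TTCNNNGAA (N is any base) in capitals, which starts 100 bases before the gene.
Csn1s1: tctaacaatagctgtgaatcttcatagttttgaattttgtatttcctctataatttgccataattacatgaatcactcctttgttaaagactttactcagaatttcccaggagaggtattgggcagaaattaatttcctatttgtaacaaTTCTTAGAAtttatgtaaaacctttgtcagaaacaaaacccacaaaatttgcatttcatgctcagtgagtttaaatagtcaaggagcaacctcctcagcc
The motif reads the same on both strands. For comparison, the same motif is shown with 10 bases on each side at Csn1s1 (chr5:87666098-87666126, plus strand), at Csn2, the gene of beta-casein (chr5:87699500-87699528, minus strand, 93 bases before the start), and at Glycam1, a milk mucin (chr15:103565208-103565236, minus strand, 145 bases before the start).
Csn1s1 motif: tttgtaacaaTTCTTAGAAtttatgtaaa
Csn2 motif: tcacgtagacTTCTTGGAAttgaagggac
Glycam1 motif: gccaactcatTTCCCAGAAacaccaattc
These were 3 of 17 windows of the milk gene list that held it. RefSeq windows were matched for 15 of the 22 genes of that list. Over all 32851 windows of this length, 2306 (7.02%) held the motif. A match describes letters only.

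The epithelial-score cells made up 0.603% of kept cells in mouse 1 (exact 95% binomial interval 0.165 to 1.54), 0.664% in mouse 2 (0.364 to 1.11) and 0.502% in mouse 3 (0.350 to 0.697). The 3 intervals overlapped. Over all kept cells the share was 0.544% (0.407 to 0.711), and all such intervals cover counting error only. The cells of a mouse share its tumour, so gene levels were compared over 3 sums of UMIs per class, 1 for each mouse.

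The rule itself set the levels of its 4 genes, which are given as a description. Epcam had 744 UMIs in 40 of the 53 cells, Krt8 had 623 in 46 and Krt18 had 815 in 46. Krt19 was sparse, with 36 UMIs in 16 cells. Of the 53 cells, 5 had UMIs of 1 of the 4 genes, 10 of 2, 29 of 3 and 9 of all 4. Thus most carried several of the genes, yet 14 cells rested on fewer than 5 UMIs of the score and 35 had at least 10. The score ran from 10.8 to 196.7 per 10000 UMIs with a median of 33.2. The lowest cells inside the threshold stood at 10.8 and 11.8, and the highest outside it at 9.87 and 9.42. Below the threshold lay 1522 kept cells with a UMI of the 4 genes, of which 79.7% had 1 such UMI. Their median score was 0.816.

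**Figure D1:**
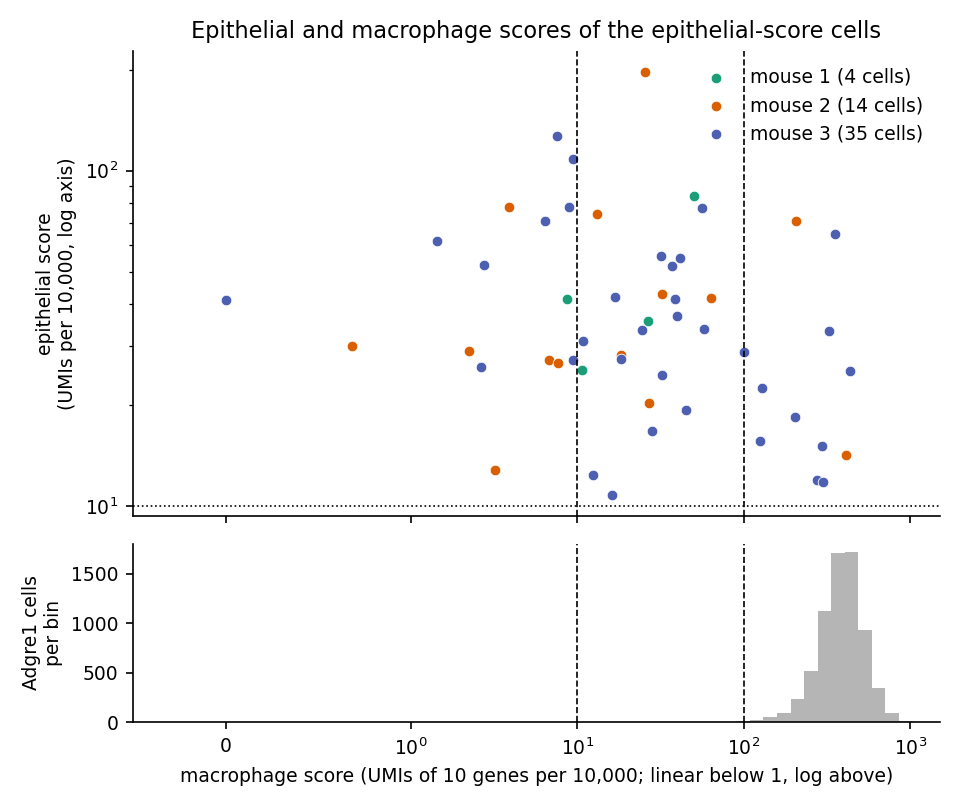
Epithelial score (log axis) of the 53 epithelial-score cells against their macrophage score, both in UMIs per 10000, coloured by mouse; the dotted line is the threshold of 10 and the dashed lines mark macrophage scores of 10 and 100, with a histogram of the macrophage score of Adgre1 cells below. In 12 cells the macrophage score was 100 or more, which reaches into the range of the Adgre1 cells.

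These were shallow cells. Their median was 2888 UMIs in mouse 1, 2874.5 in mouse 2 and 4058 in mouse 3, against 16210, 14223 and 9571 in the Adgre1 cells. In every mouse the epithelial-score cells lay lower. Over all mice they held a median of 1483 genes against 2725, and a median mitochondrial share of 4.16% against 4.63%. By mouse that share had no common direction. Its medians were 6.78%, 0.482% and 5.90% in mice 1, 2 and 3, against 4.62%, 4.63% and 4.62% in the Adgre1 cells. Few deep cells carried much of each sum. The deepest cell gave 51.9% of the 14349 UMIs in mouse 1, 42.7% of the 205741 in mouse 2 and 20.6% of the 298882 in mouse 3. The gene levels of all 53 cells were therefore also compared without the deepest cell of each mouse. In such sums, fewer cells that make a transcript and less of it per cell cannot be told apart.

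A macrophage score, the summed UMIs of 10 genes such as C1qa, Csf1r and Lyz2 per 10000, split the 53 cells. It was under 10 in 16 cells (1, 6 and 9 in mice 1, 2 and 3), from 10 to under 100 in 25 (3, 6 and 16), and 100 or more in 12 (0, 2 and 10). Hence 37 of 53 cells (69.8%, exact 95% interval 55.7 to 81.7) had a macrophage score of at least 10, namely 3 of 4 in mouse 1, 8 of 14 in mouse 2 and 26 of 35 in mouse 3. Adgre1 cells had a median of 390, and 1% of them lay under 145. The 12 high cells ran from 101 to 437, so most of them fell where Adgre1 cells lie. A UMI of a gene of the sorting gate (Ptprc for CD45, Adgre1 or Itgam for CD11b) was seen in 2 of the 16 low cells, 5 of the 25 middle cells and 10 of the 12 high cells. The label epithelial cell thus holds for the 41 cells under 100 more plainly than for the 12 above, in which epithelial and macrophage transcripts shared a barcode. Among the 12, the cells of 695, 836, 1083 and 1281 UMIs in mouse 3 had only 2, 1, 2 and 2 UMIs of the epithelial score. Those of 836, 1083 and 1281 UMIs had no UMI of Csn3, Krt5 or Krt14, so their epithelial content rested on these few UMIs. Doublets were not removed, and their part in these 12 cells was not tested.

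Genes of epithelial junctions, which the rule did not use, were high in the chosen cells. Of 28 listed genes, 18 passed the filter on low counts, 17 rose and 0 fell by edgeR's quasi-likelihood test at an adjusted p under 0.05. Over all 10233 genes tested, 8.26% were higher and 13.4% lower (21.7% called in all). The 10 junction genes that were left out had no UMI in the 4 cells of mouse 1. A gene that passed through the epithelial-score cells alone had to differ, so counts of this kind are descriptions. The median log2 fold change of the list was 5.78, against -0.21 over all genes tested. The p-values take their spread from all genes and from 3 sums per class, not from the 53 cells, and a gene carried by 1 cell can still give a very small p.

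Cldn3, a claudin that seals tight junctions, reached 279, 462 and 746 CPM (UMIs per 1000000 UMIs of the class) in mice 1, 2 and 3, against 0.312, 0.460 and 1.13 in Adgre1 cells (log2 fold change 9.34 ± 0.65 SE, edgeR adjusted p = 3.25e-44, n = 3 mice). The classes lay far apart in every mouse, and 34 of the 53 cells had a UMI. Cldn7, another claudin, stood at 209, 287 and 248 CPM against 0.208, 0.427 and 0.695 (8.65 ± 0.44, edgeR adjusted p = 3.70e-82). Rab25, a GTPase of epithelial membrane recycling, was at 139, 175 and 141 against 0.104, 0.263 and 0.626 (8.23 ± 0.44, edgeR adjusted p = 2.73e-74). Cdh1, E-cadherin, was far sparser, with UMIs in 13 cells and 69.7, 72.9 and 66.9 CPM against 1.87, 0.855 and 1.30 (5.63 ± 0.47, edgeR adjusted p = 7.46e-31). Cd24a, a surface protein that macrophages carry too, rose by less (5.19 ± 0.40, edgeR adjusted p = 1.53e-35), a call lost with at least 1000 genes per cell (4.94, edgeR adjusted p = 0.261). The gene of the list that did not pass the test was F11r, a junction adhesion molecule, at 69.7, 58.3 and 63.6 against 47.8, 41.2 and 43.2 (0.28 ± 0.40, edgeR adjusted p = 0.705).

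Milk transcripts were far more abundant in the chosen cells than in Adgre1 cells. All 18 tested genes of the list of 22 milk protein and luminal progenitor genes rose and 0 fell (background 8.26% higher), with a median log2 fold change of 9.21. Not all of them were higher in every mouse, since Csn2 had 0 CPM in mouse 3 against 1.30 in its Adgre1 cells. Summed over the list, the level was 663, 699 and 452 UMIs per 10000 in mice 1, 2 and 3, against 7.67, 5.33 and 7.01 in Adgre1 cells. Without the deepest cell of each mouse, or without any 1 mouse, the list still had 0 lower calls, which does not say how many rises held. With at least 1000 genes per cell, 15 of 19 tested genes rose, as did 15 of 19 with at most 8% mitochondrial UMIs. By DESeq2 all 18 tested genes rose.

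Csn3, kappa-casein (chr5:87925579-87932665, plus strand, GENCODE M21 on GRCm38), had 16308, 21619 and 12848 CPM against 8.85, 11.6 and 16.6 (9.90 ± 1.30, edgeR adjusted p = 1.37e-12). It was seen in 41 of the 53 cells, in which it varied widely: the lowest cell had 0, the median cell 37.2 and the highest 413 UMIs per 10000. Without the deepest cell of each mouse its level was 5216, 7772 and 10203 CPM, still far above Adgre1 cells. Wfdc18, a secreted protease inhibitor of the whey acidic protein family (chr11:83709015-83711348, plus strand), was at 21813, 10222 and 9114 CPM against 12.4, 13.4 and 17.5 (9.25 ± 1.21, edgeR adjusted p = 1.10e-12). Lcn2, lipocalin 2, which binds iron carriers of bacteria (chr2:32384633-32388252, minus strand), was at 10245, 7991 and 10871 against 6.25, 6.51 and 27.5 (9.31 ± 1.18, edgeR adjusted p = 2.10e-13). It was the milk gene seen in the most cells after Trf, 48 of 53, and ran from 0 over a median of 54.0 to 899 per 10000. Lalba, alpha-lactalbumin of the lactose synthase (chr15:98480400-98482721, minus strand), was at 5018, 6931 and 1700 against 1.98, 2.53 and 5.13 (9.82 ± 1.09, edgeR adjusted p = 1.88e-17). Its UMIs lay in 25 cells, and without the deepest cell of each mouse the level was 6230, 975 and 1146.

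The 2 caseins with the printed motif were narrower in their spread than Csn3. Csn1s1 had 684 UMIs in 9 cells, 528 of them (77.2%) in 1 cell, and 906, 2571 and 475 CPM against 0.520, 0.460 and 0.713 (10.37 ± 0.89, edgeR adjusted p = 2.61e-29). Csn2 had 510 UMIs in 3 cells, 478 of them in 1 cell, and 2160, 2328 and 0 CPM in mice 1, 2 and 3, so in mouse 3 none of the 35 cells showed it. Without the deepest cell of each mouse, Csn1s1 was at 1739, 8.48 and 37.9 CPM and Csn2 at 4491, 8.48 and 0. Both were thus far lower in mouse 2 and higher in mouse 1 than with all cells. Glycam1 had 1 UMI and was not tested. Csn1s1 and Csn2 were thus seen in few of the cells, and Csn3 in most. Csn1s2a, Ltf and Wap, whose windows did not hold the motif, were uneven too, with 181, 800 and 295 UMIs in 5, 16 and 17 cells. The deepest cell of mouse 2 held 170, 734 and 240 of these UMIs. A link of the motif with the spread was not tested.

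Elf5, Plet1 and Kit, which mark alveolar progenitors, were seen in more cells than these 2 caseins. Elf5, the alveolar transcription factor, was at 348, 326 and 120 CPM against 0.833, 0.230 and 0.382 (8.76 ± 0.44, edgeR adjusted p = 2.59e-85), in 21 cells. Plet1, a surface protein of luminal progenitors, was at 976, 982 and 923 against 1.46, 1.97 and 2.17 (8.53 ± 0.70, edgeR adjusted p = 1.35e-31). Kit, a receptor of those progenitors, was sparse at 139, 19.4 and 77.0 but rose as well (7.20 ± 0.62, edgeR adjusted p = 4.97e-29). Mfge8, a milk fat globule protein, stood at 976, 1356 and 1275 against 15.6, 15.4 and 14.8 (5.84 ± 0.71, edgeR adjusted p = 8.46e-15). Trf, transferrin, was abundant in Adgre1 cells too, at 685, 456 and 596 against 4460, 8564 and 6725 in the epithelial-score cells. It rose by 2.98 ± 0.91 (edgeR adjusted p = 0.0074), a call that was lost without mouse 2, without mouse 3 or without the deepest cells (2.44, 2.75 and 2.14). Btn1a1, butyrophilin of the milk fat membrane, gave 121 UMIs in 8 cells (10.26 ± 0.47, edgeR adjusted p = 4.13e-102). Aldh1a3 and Olah were at 0 UMIs in the epithelial-score cells.

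**Figure D2:**
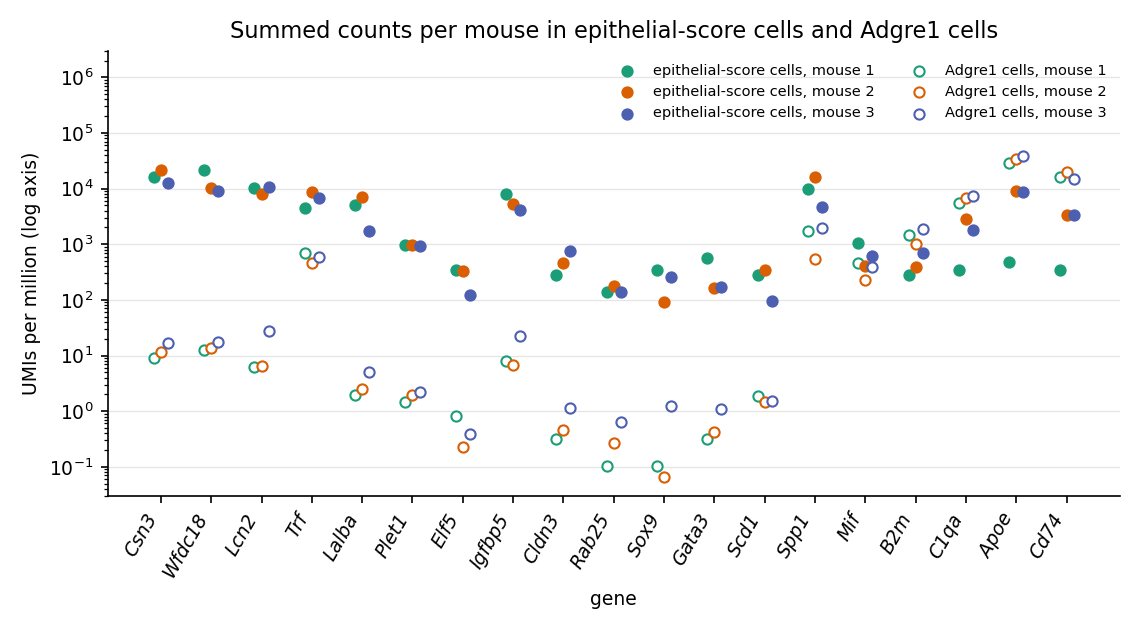
CPM (log axis) of 19 genes in each mouse, filled for the epithelial-score cells and open for the Adgre1 cells; values of 0 are not drawn. The classes stand apart in every mouse for Csn3, Wfdc18 and Lcn2, overlap for Mif, and turn over for C1qa and Apoe, where the epithelial-score cells of mouse 1 lie lowest.

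Milk transcripts were also met in single UMIs in many Adgre1 cells. Csn3 was seen in 77.4% of the epithelial-score cells and 15.2% of the Adgre1 cells, at median depths of 3373 and 10687 UMIs. After each cell was thinned to 2000 UMIs, which left 35 and 6800 cells, the shares were 85.7% and 3.31%. Wfdc18 went from 75.5% against 16.4% to 82.9% against 3.04%, and Lcn2 from 90.6% against 19.2% to 97.1% against 4.15%. Cldn3, a junction gene, was less abundant in the epithelial-score cells, at 620 CPM pooled against 16421 for Csn3. Its shares went from 64.2% against 1.14% to 57.1% against 0.191%. Thus each of these shares in the chosen cells lay far above the share in Adgre1 cells. Per Csn3 UMI there were 1.34, 0.473 and 0.709 UMIs of Wfdc18 in the epithelial-score cells of mice 1, 2 and 3, and 1.40, 1.16 and 1.06 in their Adgre1 cells. For Lalba these were 0.308, 0.321 and 0.132 against 0.224, 0.219 and 0.310. Over all cells the ratio of Wfdc18 was thus lower in each mouse, by little in mouse 1, while that of Lalba had no common direction. Without the deepest cell of each mouse, Wfdc18 was at 11881, 3729 and 5388 CPM and Csn3 at 5216, 7772 and 10203. The Wfdc18 ratio then lay above that of the Adgre1 cells in mouse 1 and below it in mice 2 and 3. These differences were not tested.

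Outside the lists, several secreted proteins were among the genes with the largest rise. Igfbp5, which binds insulin-like growth factors, was at 8084, 5381 and 4099 CPM against 7.81, 6.80 and 22.0 (8.52 ± 1.06, edgeR adjusted p = 4.66e-14), in 41 cells. Fxyd3, a regulator of the sodium pump, was at 2370, 646 and 1020 against 0.937, 0.888 and 1.74 (9.38 ± 0.73, edgeR adjusted p = 3.48e-35). Nfib, a transcription factor, was at 1324, 943 and 840 against 1.35, 1.48 and 4.45 (8.33 ± 0.69, edgeR adjusted p = 1.26e-31). Clu, the secreted chaperone clusterin, was at 697, 389 and 304 against 0.937, 0.329 and 0.887 (8.81 ± 0.49, edgeR adjusted p = 5.11e-70). Saa1, an acute-phase protein, was uneven, at 69.7, 2882 and 1442 against 1.67, 0.756 and 1.76 (9.40 ± 1.07, edgeR adjusted p = 7.84e-17). Its UMIs lay in 18 cells. Saa1 and Saa2, which was at 418, 865 and 890 in the epithelial-score cells, are near-identical copies, so their split is uncertain. Lao1, Dkkl1, Tpd52l1, Inhbb, Atp6v1b1 and Igfbp7 rose as well, with log2 fold changes of 9.66, 9.25, 8.86, 8.75, 8.51 and 8.40.

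Hormone-sensing genes were scarce. Esr1 and Pgr, the oestrogen and progesterone receptors, had 0 UMIs in the epithelial-score cells, as did their partner Foxa1 and Cited1, Tnfsf11, Greb1 and Tbx3. Of 13 listed genes 5 were tested, 1 rose and 1 fell, beside 8.26% and 13.4% of all genes. Prlr, the prolactin receptor, rose, at 69.7, 87.5 and 46.8 CPM against 0, 0.131 and 0.504 (7.50 ± 0.56, edgeR adjusted p = 4.09e-39). Areg, the growth factor amphiregulin, fell, at 0, 4.86 and 40.1 against 75.6, 169 and 70.4 (-2.32 ± 0.51, edgeR adjusted p = 7.46e-05), with 13 UMIs in 3 cells. That call was lost without mouse 2 (-1.21) and with at least 1000 genes per cell (-2.26). A count of 0 over the whole class allows up to 5.78 CPM, so low levels of the receptors were not detectable at this depth.

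Basal keratins were seen in few of the cells. Krt5 was seen in 3 cells, with 9, 23 and 3 UMIs, and these cells also had 21, 16 and 6 UMIs of Krt14. None of the 3 had a UMI of Csn3 or Wfdc18. The first, from mouse 2, held 14196 UMIs and also had 14 of Acta2 and 18 of Tagln, both of smooth muscle type contraction, 2 of Trp63, the basal transcription factor, and 28 of Sparc. Krt14 was seen in 10 cells, with at least 5 UMIs in 6, of which 2 also had Csn3. A further 36 cells had Csn3 and neither basal keratin. Krt14 was at 0, 112 and 197 CPM in mice 1, 2 and 3, against 0.729, 0.197 and 1.32, and was not tested in the whole class. Of 14 listed basal genes 2 were tested and both rose (background 8.26% higher). Lgals7, galectin 7, was at 209, 14.6 and 104 against 0.208, 0.296 and 1.95 (5.83 ± 0.52, edgeR adjusted p = 1.65e-27). Tagln rose by 5.33 ± 0.59 (edgeR adjusted p = 1.51e-17), but 18 of its 21 UMIs lay in 1 cell and the call was lost without mouse 2 (3.31).

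**Figure D3:**
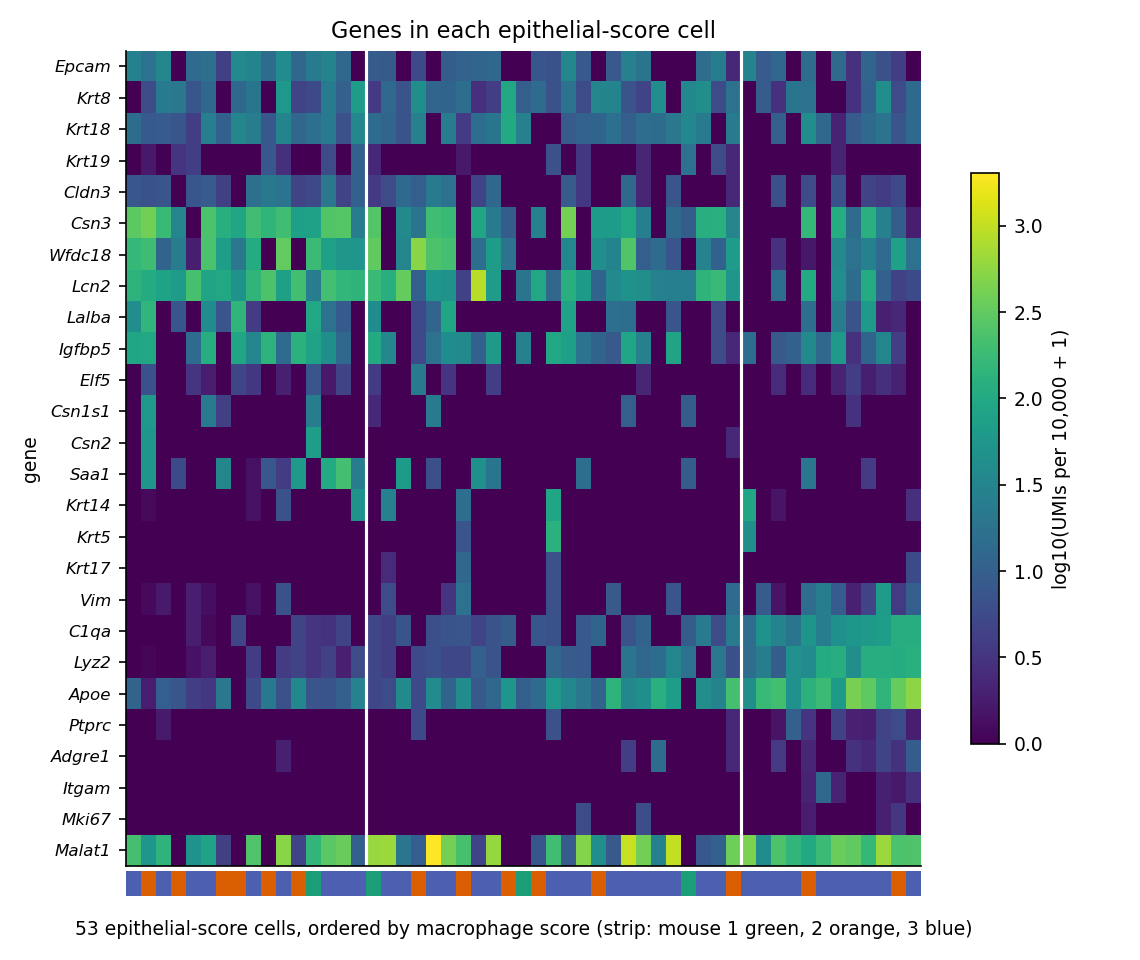
Levels of 26 genes in each of the 53 epithelial-score cells, as log10 of UMIs per 10000 plus 1, with cells in columns ordered by macrophage score, white lines at scores of 10 and 100, and a strip that gives the mouse. Csn3, Wfdc18 and Lcn2 are spread over most columns, Krt5 is seen in 3 and Csn2 in 3, and C1qa, Lyz2 and Apoe grow to the right.

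Genes of a mesenchymal shift did not rise together. Of 10 listed genes 5 were tested, 1 rose and 3 fell, beside 8.26% and 13.4% of all genes. Vim, vimentin, was at 0, 535 and 391 CPM against 1642, 2170 and 1870 (-2.98 ± 0.81, edgeR adjusted p = 0.00208). Zeb2, a repressor of E-cadherin that macrophages express, was at 69.7, 38.9 and 63.6 against 591, 700 and 370 (-3.56 ± 0.67, edgeR adjusted p = 2.80e-06). Both calls were lost without mouse 2 (-3.77 and -3.13) and without mouse 3 (-3.67 and -4.37), and that of Vim also without the deepest cells (-2.56). Sparc, a matrix protein, rose by 3.18 ± 0.49 (edgeR adjusted p = 2.24e-07), with 28 of its 34 UMIs in the Krt5 cell of mouse 2, and by 0.94 without that mouse, no longer called. Fn1, fibronectin, fell by 3.63 (-3.63 ± 0.71, edgeR adjusted p = 7.99e-06), a call lost without mouse 2 (-2.72) and with at least 1000 genes per cell (-3.26). Snai2, Twist1, Cdh2 and Prrx1 were at 0 UMIs.

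Of 15 receptor kinases and growth control genes 12 were tested, 7 rose and 0 fell (background 8.26% higher), with a median of 2.87. Sox9, a factor of epithelial progenitors, was at 348, 92.3 and 261 CPM against 0.104, 0.0657 and 1.25 (8.17 ± 0.46, edgeR adjusted p = 6.62e-68). Gata3, the factor of luminal fate, was at 558, 165 and 171 against 0.312, 0.427 and 1.11 (7.79 ± 0.42, edgeR adjusted p = 1.38e-74). Both were far higher in every mouse. Sox4 was at 69.7, 258 and 428 against 24.1, 25.5 and 33.5 (3.06 ± 0.41, edgeR adjusted p = 5.22e-12), and that call was lost without mouse 2 (2.73). Fgfr1, a fibroblast growth factor receptor, rose too (2.68 ± 0.49, edgeR adjusted p = 2.58e-05), a call lost without the mouse as a block (2.72) and with library totals alone (2.97). Ccnd1, cyclin D1, did not pass the test (0.38 ± 0.38, edgeR adjusted p = 0.545).

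Most lipid genes that passed the test were of fatty acid synthesis and rose. Of 16 genes, all tested, 8 rose and 1 fell, beside 8.26% and 13.4% of all genes, with a median of 0.85. Scd1, the desaturase that makes monounsaturated fatty acids, was at 279, 345 and 97.0 CPM against 1.87, 1.45 and 1.51 (6.69 ± 0.40, edgeR adjusted p = 9.47e-60). Thrsp, a regulator of fatty acid synthesis in milk-making cells, was at 139, 126 and 234 against 1.14, 0.427 and 1.13 (7.48 ± 0.43, edgeR adjusted p = 2.60e-64). Srebf1, the transcription factor above them, was at 209, 77.8 and 181 against 10.7, 10.3 and 14.9 (3.15 ± 0.37, edgeR adjusted p = 3.24e-15). Elovl6, Acaca, Fasn and Scd2, also of fatty acid synthesis, rose by 4.04, 1.71, 1.51 and 1.48, and Sqle, of sterol synthesis, by 2.36. Lpl, the lipase that frees fatty acids for uptake, fell (-2.75 ± 0.54, edgeR adjusted p = 8.67e-06). By DESeq2 only 4 genes of the list rose and 2 fell, of 15 tested. Scd2 was among those not called there (1.26), and was not called without mouse 3 either (1.01). Plin2, which coats lipid droplets, was at 418, 418 and 228 against 828, 589 and 801 (-1.56 ± 0.64, edgeR adjusted p = 0.0656), and was called lower under 11 alternatives, for example without mouse 1 (-1.42).

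Glycolysis was mostly not told apart. Of 15 genes 14 were tested, 2 rose and 1 fell, beside 8.26% and 13.4% of all genes, with a median of 0.03. Ldha, lactate dehydrogenase A, was at 1324, 1137 and 1476 CPM against 573, 384 and 562, higher in each mouse but not past the test (0.90 ± 0.67, edgeR adjusted p = 0.382). It passed under 5 alternatives, from 1.21 to 1.43, among them the fit without mouse 1, and stood at -0.018 without the deepest cell of each mouse. Pfkl, a phosphofructokinase subunit, rose by 2.13 ± 0.35 (edgeR adjusted p = 5.56e-08), and Ndrg1, a gene of low oxygen, by 2.01 ± 0.35 (edgeR adjusted p = 3.86e-07). Without mouse 3 neither was called (2.15 and 1.76), nor was Pfkl without mouse 2 (2.17) or Ndrg1 without the deepest cells (1.21).

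Signals that act on macrophages were mostly lower or not told apart. Of 22 listed genes 15 were tested, 2 rose and 7 fell, with a median of -2.14 (background 8.26% and 13.4%). Spp1, osteopontin, was the most abundant, at 9966, 15894 and 4664 CPM against 1704, 542 and 1973. The epithelial-score cells were higher in each mouse, yet the difference missed the threshold (2.24 ± 0.97, edgeR adjusted p = 0.0836). A single cell gave 52.1% of its UMIs. Without the deepest cell of each mouse its level was 145, 6475 and 4571 CPM, so that mouse 1 then lay below its Adgre1 cells. It passed under 5 alternatives, from 2.12 to 2.97. Mif, macrophage migration inhibitory factor, was at 1045, 403 and 622 against 453, 229 and 387 (0.39 ± 0.56, edgeR adjusted p = 0.705), and passed with library totals alone (0.88). Tgfb2, a transforming growth factor, rose, at 209, 48.6 and 43.5 against 0.208, 0.756 and 0.330 (6.60 ± 0.57, edgeR adjusted p = 2.08e-28), with 26 UMIs in 10 cells. Ccl2, which draws monocytes, was at 0, 14.6 and 164 against 836, 633 and 801 (-3.93 ± 0.74, edgeR adjusted p = 3.18e-06), and was not called without mouse 2 (-3.42). Cxcl16, another chemokine, fell (-2.81 ± 0.69, edgeR adjusted p = 0.000507), and was not called without mouse 2 (-3.27), mouse 3 (-2.71) or the deepest cells (-2.39). Csf1, the growth factor of macrophages, was at 0, 19.4 and 10.0 against 11.8, 16.5 and 7.75 (0.01 ± 0.64, edgeR adjusted p = 0.995).

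Genes of MHC class I and antigen display, most of which serve to show peptides to T cells, mostly did not pass the test. All 11 genes were tested, 3 fell and 0 rose (background 13.4% lower), with a median of -1.35. B2m, the shared light chain, was at 279, 394 and 709 CPM against 1492, 998 and 1856 (-2.04 ± 0.74, edgeR adjusted p = 0.0313). The classes did not overlap, but the call was lost under 6 alternatives, from -2.44 to -1.63, among them leaving out mouse 2, mouse 3 or the deepest cells. H2-D1 was at 279, 1030 and 1977 against 3031, 2445 and 4008 (-2.12 ± 0.86, edgeR adjusted p = 0.0597), and was called under 11 alternatives (-2.80 to -1.38). H2-K1 was at 209, 943 and 1114 against 1542, 1349 and 1402 (-1.38 ± 0.77, edgeR adjusted p = 0.203). It was called lower without the cells of macrophage score 100 or more (-1.86) and with cells thinned to at most 2000 UMIs (-1.83). Cd274, the ligand PD-L1 and not a class I gene, had 0 UMIs against 15.1, 18.1 and 9.48 CPM. Its lower call was lost under 4 alternatives, among them DESeq2.

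Cell cycle genes were not higher. All 20 were tested, 0 rose and 6 fell (background 8.26% and 13.4%), with a median of -1.13. Mki67 was at 0, 53.5 and 23.4 CPM against 57.0, 150 and 82.0 (-1.88 ± 0.47, edgeR adjusted p = 0.000708). With as many Adgre1 cells as members (-0.84), with cells thinned to 2000 UMIs (-1.79), without the deepest cells (-1.32), without mouse 2 (-2.07) or without mouse 3 (-1.87) it was not called. A UMI of any of 5 cycle genes was seen in 13 of the 53 cells (24.5%) and 39.0% of Adgre1 cells. After thinning to 2000 UMIs it was seen in 0 of 2 cells of mouse 1, 4 of 10 of mouse 2 and 4 of 23 of mouse 3. Together this was 8 of 35 cells (22.9%, exact 95% interval 10.4 to 40.1) against 1120 of 6800 (16.5%, 15.6 to 17.4). Thinned to 1000 UMIs the shares were 10.2% (3.40 to 22.2) and 11.3%. The order of the classes thus changed with the depth, and at both matched depths the interval of the epithelial-score cells held the share of the Adgre1 cells.

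**Figure D4:**
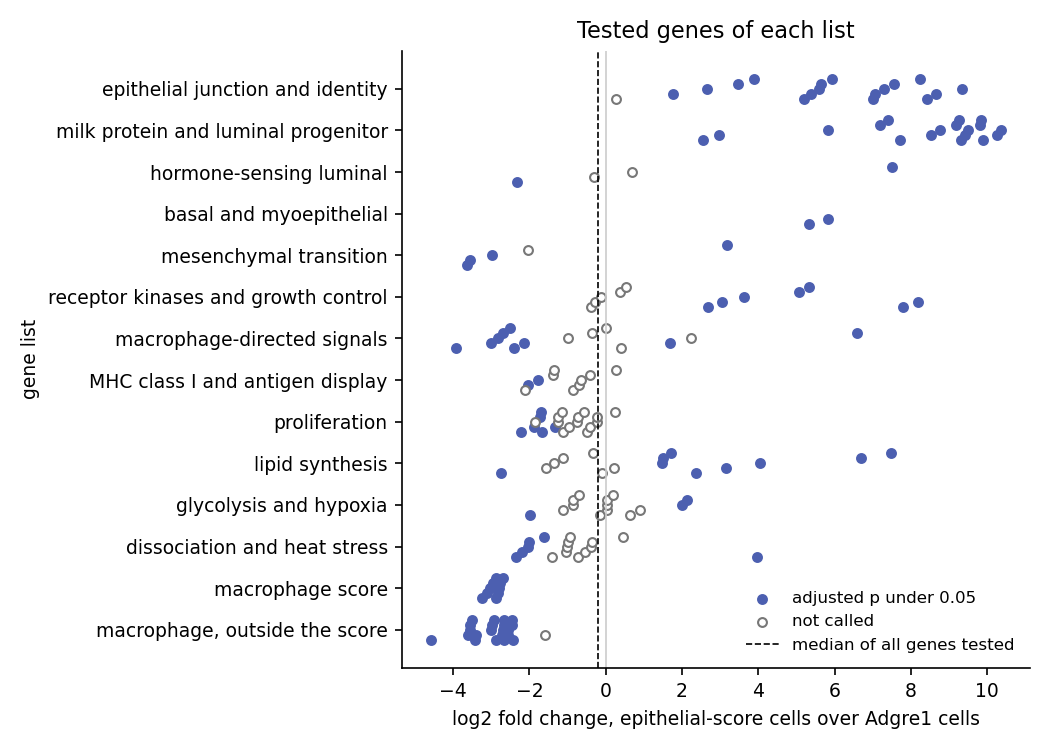
Log2 fold changes, epithelial-score cells minus Adgre1 cells, of the tested genes of 14 lists, filled where the edgeR adjusted p was under 0.05, with the median over all genes (-0.21) dashed; genes with 0 UMIs in the epithelial-score cells are left out. The junction and milk lists lie to the right of the dashed line, the macrophage lists to its left, and the glycolysis list around it.

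Of 16 genes of dissociation and heat stress, all tested, 1 rose and 5 fell, beside 8.26% and 13.4% of all genes. Hspb1, a small heat shock protein of epithelium, was at 69.7, 296 and 258 CPM against 4.79, 16.0 and 13.7 (3.97 ± 0.37, edgeR adjusted p = 2.86e-25). Junb, an immediate early gene, was at 139, 399 and 940 against 1873, 1584 and 1889 (-2.36 ± 0.80, edgeR adjusted p = 0.0184), a call lost without mouse 2 (-2.62), mouse 3 (-3.26) or the deepest cells (-2.14). Fos was at 69.7, 243 and 1101 against 888.5, 657.5 and 791 (-1.40 ± 0.72, edgeR adjusted p = 0.162), so that mouse 3 stood above its Adgre1 cells and the other mice below.

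Macrophage genes were present in the chosen cells, at lower levels than in Adgre1 cells. The 10 genes of the macrophage score summed to 14.6, 110 and 88.8 UMIs per 10000 in mice 1, 2 and 3, against 357, 357 and 416. A further 22 macrophage genes summed to 18.8, 200 and 180 against 737, 840 and 821. All 10 of the score and 21 of the 22 fell (background 13.4% lower). Without mouse 2, 0 of 10 and 0 of 22 were called, without mouse 3, 0 and 1, and without the deepest cells, 0 and 7. Apoe, a lipid carrier, was at 488, 9099 and 8605 CPM against 29384, 34643 and 38594 (-3.44 ± 1.22, edgeR adjusted p = 0.026). C1qa, of complement, was at 348, 2887 and 1767 against 5606, 6750 and 7439 (-2.69 ± 0.96, edgeR adjusted p = 0.0272). Mouse 1, without a cell of high macrophage score, was the lowest for both. Ptprc was at 0, 126 and 50.2 CPM against 349, 601 and 366 (-2.93 ± 0.61, edgeR adjusted p = 3.05e-05), and Itgam at 0, 34.0 and 16.7 against 149, 145 and 165 (-2.98 ± 0.54, edgeR adjusted p = 1.11e-06). Adgre1, which chose the other class, was at 0, 63.2 and 87.0 CPM. Outside the lists, Lyz1, Retnla, Ccl3, Cxcl2, Pf4, Pmp22, Ccl12 and Ccl4 fell, from -5.99 for Lyz1 and -5.81 for Retnla to -4.49 for Ccl4. The call was lost for Lyz1 without the mouse as a block (-5.74), for Cxcl2, Pf4 and Ccl4 without mouse 2 (-4.14, -4.11 and -3.91), and for Cxcl2 and Ccl4 with at least 1000 genes per cell (-4.03 and -4.02).

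The epithelial genes were high at both ends of the macrophage score. With sums split at a score of 10, mouse 1 gave no sum of low cells, and 3023 genes were tested. In the low cells 39.3% of them were called (13.7% higher and 25.6% lower), and in the others 17.3% (8.2% and 9.1%). Csn3 was 10.92 higher on the log2 scale than in Adgre1 cells in the low cells and 9.29 in the others, and Cldn3 9.76 and 8.98. Both classes share the Adgre1 cells, and the difference between them was not tested. Csn3 in pooled UMIs per 10000 was 251 under a macrophage score of 10, 66.4 from 10 to 100 and 72.1 at 100 or more. A Csn3 UMI was seen in 15 of 16, 19 of 25 and 7 of 12 cells. The median depths of these 3 bands were 7593, 1851 and 10339 UMIs. Of 8522 Csn3 UMIs over all epithelial-score cells, 3531 lay in a low cell of mouse 2 and 1418 in a low cell of mouse 3. Spp1 was 3.41 higher in the low cells (edgeR adjusted p = 0.000333) and 1.70 in the others (edgeR adjusted p = 0.0528). Of its 4807 UMIs over all epithelial-score cells, 2506 lay in the deepest cell of mouse 2, which is a low cell.

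Malat1, an abundant RNA kept in the nucleus, divided the cells in another way. In 21 of the 53 (2, 9 and 10 in mice 1, 2 and 3) it was under 50 UMIs per 10000. These cells had a median mitochondrial share of 0.533% (0 to 7.09) and 1482 UMIs, and 17 of them had under 2% mitochondrial UMIs. The other 32 had a median of 6.74% (1.19 to 14.3) and 8247.5 UMIs, and 4 of them lay under 2%. Neat1, another nuclear RNA, was at 0.961 UMIs per 10000 in the first and 9.31 in the second. Malat1 and mitochondrial transcripts were thus low together in 17 of the 21 cells. Csn3 was still seen in 17 of the 21. Among Adgre1 cells, with a median Malat1 of 236, 178 of 6907 lay under 50, their median mitochondrial share was 5.18%, and 17 of them were also under 2%. Without the 21 cells, which leaves too few in mouse 1 for a sum, 2601 genes were called. Leaving out mouse 1 alone gave 2904, and the fit of all 53 cells gave 2218.

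**Figure D5:**
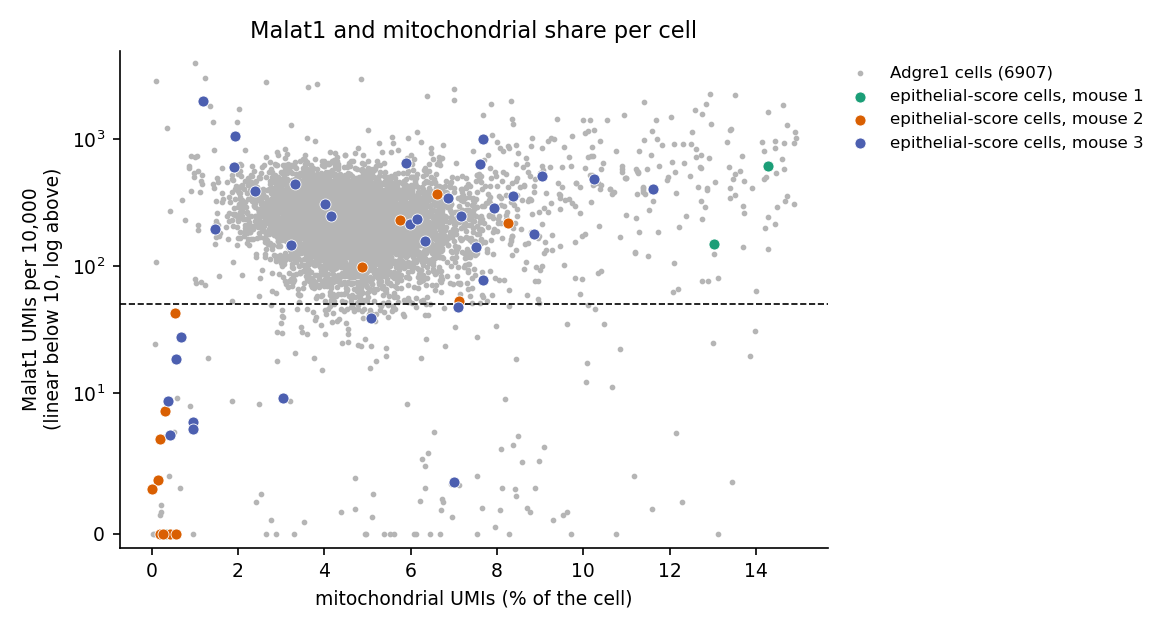
Malat1 (UMIs per 10000, linear below 10 and log above) against the mitochondrial share of UMIs in each epithelial-score cell, coloured by mouse, and in the Adgre1 cells (grey), with a dashed line at 50. Of the 21 cells under the line, 17 lie under 2% mitochondrial UMIs, some of them drawn over each other, and the others reach up to 7.09%. Most Adgre1 cells lie between 2% and 8% above the line.

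Markers of other cell types were near absent. T cell, B cell, natural killer, dendritic, erythroid and adipocyte genes had 0 UMIs in the 53 cells, and fibroblast, endothelial and pericyte genes had 2, 3 and 6. The neutrophil list had 51 UMIs in 19 cells, of which S100a8, a calcium-binding protein of neutrophils and of stressed epithelium, gave 48 in 17 cells. S100a8, named here after its values were seen, was at 69.7, 151 and 53.5 CPM against 2.19, 0.822 and 1.25 (6.02 ± 0.44, edgeR adjusted p = 1.17e-40). Its partner S100a9 and the neutrophil gene Ly6g were at 0.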

How the data were processed

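Droplet 3' single-cell RNA was measured in 3 tumours of 1 group. The deposited values are UMI counts per gene and barcode, made by the authors with Cell Ranger 3.0.2 on mm10, per the submitters' processing notes and the file headers; the annotation version is not given in the sources used here. Library totals were 12454677, 41097369 and 86178419 UMIs. Counts were not normalized before deposit. Barcodes with fewer than 500 genes or over 15% mitochondrial UMIs were removed (411, 362 and 451). No doublet caller was run.

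Each class of cells gave 1 sum of UMIs per mouse. The sums went into the quasi-likelihood F test of edgeR (4.0.16, under R 4.3.3), with TMM scaling, the filter filterByExpr, a robust fit with the mouse as a block, because both classes come from the same mouse, and Benjamini-Hochberg adjustment over all genes tested, at 0.05. The rule genes and Adgre1 were left out of the tests, and the macrophage score genes also where that score splits the cells. Standard errors are the log2 fold change divided by the root of F. DESeq2 1.42.0, other scalings, thresholds, filters, comparison cells and each mouse left out were alternatives. Counts were also simulated for 9924 genes of the comparison of epithelial-score with Adgre1 cells. There 37.5% of genes changed by 2 on the log2 scale were called and 100% of those changed by 4 or 6. Of the calls, 2.60% were false. The simulation gave every gene the same spread, changed only genes abundant in Adgre1 cells, and had no single deep cell that carries a sum. Its rates therefore do not measure the false calls in the real data. Shares have exact (Clopper-Pearson) 95% intervals, and a count of 0 is limited by 3 counts. Thinning drew 2000 UMIs per cell.

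Members and all 25 gene lists (279 genes) were chosen with earlier results of these data known. Named genes are the 5 of a list with the most UMIs and the 2 with the largest change of the same sign in every mouse, further members of a list for contrast, and outside the lists the 12 largest higher and 8 largest lower at 100 CPM or more, predicted genes left out. Positions are from GENCODE M21, to which 31011 of 31053 gene IDs matched. Python 3.11.15, numpy 2.4.6, scipy 1.17.1, pandas 2.3.3 and matplotlib 3.10.9 were used.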

Additional observations from a re-analysis of the deposited data

Results flagged for a closer look

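Some of the barcodes that the filters removed also passed the epithelial score. Of 1224 removed barcodes, 50 (4.08%, exact 95% interval 3.05 to 5.35) had an epithelial score of at least 10 per 10000 UMIs. These were 6, 24 and 20 barcodes in mice 1, 2 and 3, or 1.46%, 6.63% and 4.43% of the removed barcodes. Of the 50, 27 were over the mitochondrial limit and 23 had fewer than 500 genes. They were marked for a second look because the comparisons above do not use them and their share lies above the limit that a count of 0 allows. The difference from the share in kept cells was not tested.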

How the results depend on the processing

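The count of genes called between epithelial-score and Adgre1 cells was 2218. It fell to 1414 with DESeq2, 939 with as many Adgre1 cells as members, 596 with cells thinned to at most 2000 UMIs and 856 without the deepest cell of each mouse, and ran from 399 to 2904 when 1 mouse was left out. Without mouse 2 (538 calls) 86.4% of calls were higher and without mouse 3 (399) 72.9%, against 38.1% in the fit reported, and 49.8% with library totals alone, where the median of all genes was 0.07 in place of -0.21. Without the mouse as a block 2619 were called, and 1296 and 537 in place of 1187 and 523 for cells of low and high macrophage score. For the low cells, 2408 were called without the filter on low counts and 2072 with the macrophage score split at 100, and leaving out 1 mouse gave 329 to 1242. For the high cells these were 990, 137 and 172 to 392, and a split at 20 gave 278. The mean share of epithelial-score cells was 0.590%. It was 0.775% at a score of 5, 0.372% at 1000 genes, 0.788% at 200 genes and 0.490% at 8% mitochondrial UMIs. The share of members with a macrophage score over the split moved to 84.9% at 5, 54.7% at 20 and 22.6% at 100, and the share with a cycle gene UMI to 10.2% at 1000 UMIs. Of the values of single genes, 1755 kept their call, 42 gained and 105 lost one, and 16 turned their sign, none of them called as reported: Pkm (0.32 at 1000 genes, 0.34 at 8% mitochondrial UMIs, 0.26 with equal cell numbers, 0.31 without mouse 1 and -0.71 to 0.31 when 1 mouse was left out, 0.33 without members low in Malat1, 0.37 with library totals), Anxa1 (0.38 with equal cell numbers, 0.019 with library totals), Stmn1 (0.35 with equal cell numbers, 0.33 thinned), Ube2c (-2.26 to 0.011 when 1 mouse was left out, 0.74 thinned), Mcm3 (-2.38 to 0.33 when 1 mouse was left out), Ly6a (0.0096) and Ccnd1 (-0.24) without members low in Malat1, and Ldha (-0.018 without the deepest cells). The cause was not tested. Settings with 1000 genes, 8% mitochondrial UMIs or no members low in Malat1 gave no sum for mouse 1. The small number of members, 4 in mouse 1, and their depth limit what could be detected.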
